A study of Mus musculus with 6 samples.

Results

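The genes described here are 10 RNA-binding proteins that steer alternative splicing in neural and mesenchymal cells: Elavl2, Elavl3, Elavl4, Nova1, Rbfox2, Ptbp1, Ptbp2, Celf2, Mbnl1 and Qk. They were taken by symbol from a deposited table of 13069 genes, and all 10 have a row in it. The table comes from RNA-seq of mouse glioblastoma (GBM) neurospheres, which are brain tumour cells grown as floating spheres, with 3 libraries labelled ATRX knockout (ATRX KO, line C54B) and 3 labelled ATRX wild type (ATRX WT, line C39E). Both lines came from tumours raised in newborn C57BL/6 or FVB mice by putting Sleeping Beauty transposon plasmids into the brain ventricles, and both carry a hairpin against p53 (shp53) and NRAS overexpression. The ATRX KO line is also described by its protocol as made with a hairpin against ATRX (shATRX), while its labels read knockout, and the strain behind each line is not stated. The medium of both lines was DMEM/F12 supplemented with N-2 and B-27, with EGF and FGF added. Every library of a genotype has the same line code, so for every value below the effect of genotype and the difference between the lines cannot be told apart.

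Elavl2, Elavl3 and Elavl4 are the neuronal Hu proteins, which hold AU-rich transcripts stable and shift exon choice, and Nova1 sets synaptic exon programmes in neurons. Ptbp1 is the repressor of neuronal exons in non-neuronal cells and progenitors, and in developing neurons it gives way to its relative Ptbp2. Rbfox2, Mbnl1 and Qk act in many tissues, among them in the exon programmes of mesenchymal cells, muscle and, for Qk, oligodendrocytes, and Celf2 is a regulator of brain, muscle and T cell exons. The table holds 1 value per gene, so it measures how much transcript each regulator had and not how any exon was spliced.

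Values are RPKM, read numbers divided by gene length and by library size, or their log2. Summed over the genes of the table, the ATRX KO libraries held 22177228 to 32477269 reads and the ATRX WT libraries 34966108 to 38039847. Pearson correlations of log2 RPKM over genes, which are not independent replicates, lay between 0.997 and 0.998 for libraries of 1 genotype and between 0.592 and 0.599 for libraries of different genotypes. Atrx itself averaged 16.0 ± 1.60 RPKM in ATRX KO and 22.2 ± 0.571 RPKM in ATRX WT (SD, n = 3 each), a log2 fold change of -0.48 (SE 0.068, limma with Benjamini-Hochberg adjustment, adjusted p = 0.00013). Nras changed by log2 0.55 (SE 0.0278) and Trp53 by -0.13 (SE 0.0437), and the Trp53 call was lost without ATRX KO replicate 3 or without ATRX WT replicate 3. Of the 12201 genes expressed highly enough to test, 89.5% passed an adjusted p of 0.05, 43.6% by rising in ATRX KO and 45.9% by falling. With so many calls over all genes, a call by itself sets no gene apart, and the sizes of the changes carry the account. The median absolute change over all tested genes was 0.68 on the log2 scale.

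Of the 10 regulators, 7 fell in ATRX KO (Elavl2, Elavl3, Elavl4, Nova1, Celf2, Ptbp2 and Qk), 2 rose (Rbfox2 and Ptbp1) and Mbnl1 did not pass. This is 70.0% fallen against 45.9% of all tested genes and 20.0% risen against 43.6%. Falls of log2 1 or more made up 6 of the 10, against 19.6% of all tested genes, and rises of that size 1 of the 10, against 17.2%. The groups did not overlap for 9 of the 10, against 90.5% of all tested genes, which is close to the background, with ATRX KO above for 2 (44.0% of all) and below for 7 (46.5%). The median change over the 10 was -1.27 and their median absolute change 1.27. With a stricter filter, a mean log2 RPKM of at least 1, only 6 of the 10 were tested: 3 fell, 2 rose and the median was -0.47, beside 4382 falls and 4718 rises among 10239 genes. Elavl3, Elavl4, Nova1 and Celf2 were tested only because they were expressed in ATRX WT, as were 1173 of the 12201 tested genes. For these 4 regulators a difference followed from the filter, and the count of falls has to be read with that. Elavl4 was also among the 3 falls under the stricter filter. In bulk libraries such as these, fewer cells of a type and less RNA per cell cannot be told apart.

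**Figure D1:**
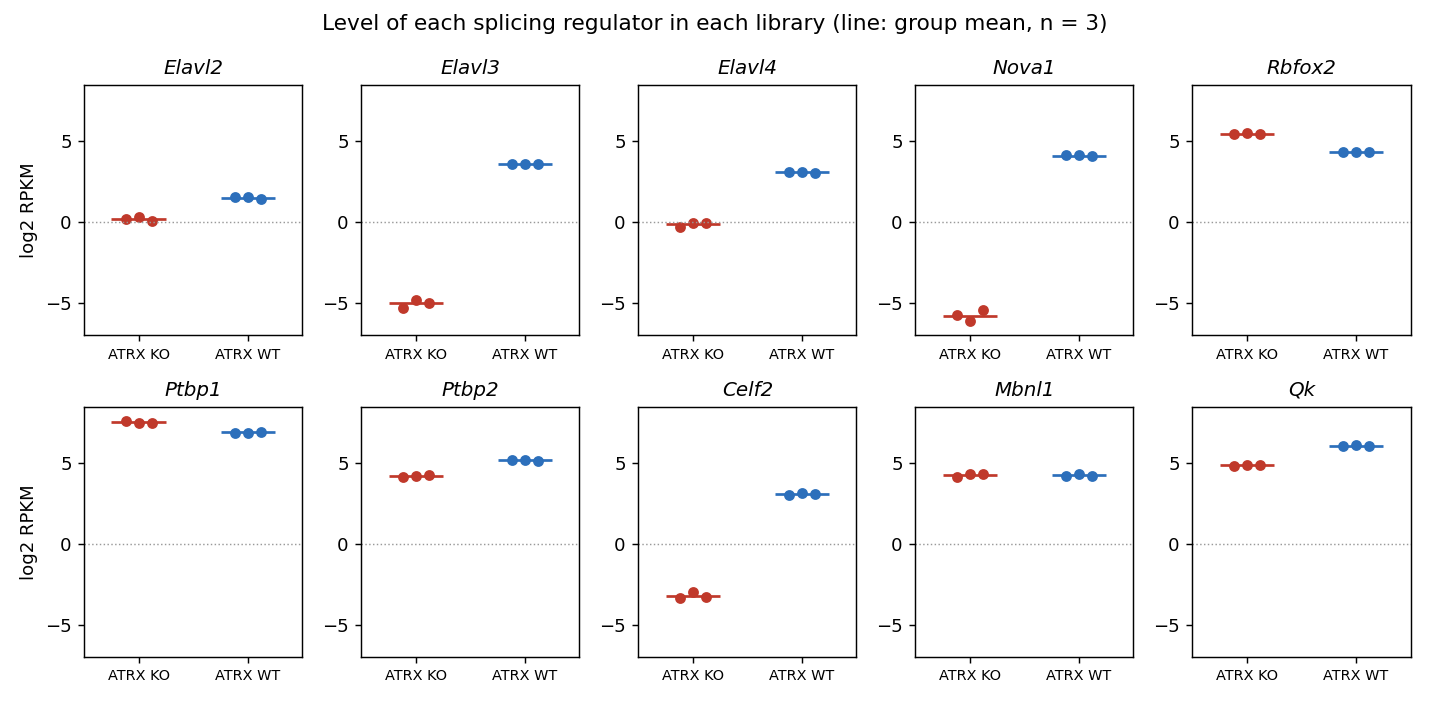
Log2 RPKM of each regulator in each library, with 1 panel per gene, ATRX KO on the left, ATRX WT on the right and a line at each group's mean (n = 3 libraries). Elavl3, Nova1 and Celf2 sit below 0 in every ATRX KO library and above 3 in every ATRX WT library, while the points of Mbnl1 overlap between the lines.

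The promoters of Elavl3 and Nova1, which had the largest falls, and of the pair Ptbp1 and Ptbp2, which moved apart, are printed from RefSeq on the GRCm38.p6 build, 5′ to 3′, from 250 bases before the start of transcription to 50 bases after it. Capitals mark CAGCTG, an E-box, a kind of site bound by bHLH factors, and GGGCGG on either strand, the GC box known from Sp1.
Elavl3 promoter, chr9:22051974-22052273, minus strand: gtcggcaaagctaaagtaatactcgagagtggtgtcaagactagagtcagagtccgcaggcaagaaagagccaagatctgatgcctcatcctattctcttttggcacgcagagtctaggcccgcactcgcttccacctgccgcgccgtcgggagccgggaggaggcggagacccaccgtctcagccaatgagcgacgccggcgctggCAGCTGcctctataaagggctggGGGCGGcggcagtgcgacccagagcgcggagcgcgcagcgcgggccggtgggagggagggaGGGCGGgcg
Nova1 promoter, chr12:46818718-46819017, minus strand: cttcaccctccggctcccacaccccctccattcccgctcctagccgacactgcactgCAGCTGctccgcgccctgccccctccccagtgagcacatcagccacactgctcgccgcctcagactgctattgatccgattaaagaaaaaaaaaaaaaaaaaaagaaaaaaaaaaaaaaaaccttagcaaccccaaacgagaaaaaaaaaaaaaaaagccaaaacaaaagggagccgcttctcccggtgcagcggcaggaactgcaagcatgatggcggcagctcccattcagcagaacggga
Ptbp1 promoter, chr10:79854182-79854481, plus strand: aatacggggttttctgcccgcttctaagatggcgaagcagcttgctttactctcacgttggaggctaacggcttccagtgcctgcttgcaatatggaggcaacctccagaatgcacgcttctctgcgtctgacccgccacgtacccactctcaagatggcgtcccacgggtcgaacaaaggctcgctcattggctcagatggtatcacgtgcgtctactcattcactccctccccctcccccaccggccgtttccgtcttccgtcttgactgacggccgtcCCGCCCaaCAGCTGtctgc
Ptbp2 promoter, chr3:119783339-119783638, minus strand: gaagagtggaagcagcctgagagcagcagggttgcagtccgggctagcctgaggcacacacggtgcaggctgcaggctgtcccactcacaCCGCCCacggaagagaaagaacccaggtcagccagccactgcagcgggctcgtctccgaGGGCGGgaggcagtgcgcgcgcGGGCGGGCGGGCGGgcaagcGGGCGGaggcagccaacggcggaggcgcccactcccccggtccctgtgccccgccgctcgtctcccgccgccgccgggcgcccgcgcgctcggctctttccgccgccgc
CAGCTG reads the same on both strands, and it occurred once in the Elavl3, Nova1 and Ptbp1 windows and not in the Ptbp2 window. GGGCGG, searched on both strands, occurred 2 times in the Elavl3 window, 6 times in the Ptbp2 window, once in the Ptbp1 window and 0 times in the Nova1 window. The 4 windows held 29, 14, 22 and 36 CG dinucleotides in the order printed, against a median of 7 over all 32851 RefSeq windows of this length.

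Entries were found for 9 of the 10 genes, with 22 windows in all, and none for Rbfox2. CAGCTG was present for 5 of these 9 genes (Elavl2, Elavl3, Elavl4, Nova1 and Ptbp1) and in 36.4% of their windows, against 16.3% of all windows. GGGCGG was present for 7 of the 9 and in 54.5% of their windows, against 35.7% of all. CAGCACC, searched on both strands, is one part of the element bound by the neuronal gene repressor REST and was in 0 of the 22 windows and in 7.14% of all. GGACAG, the other part, likewise searched on both strands, was in 27.3% of the members' windows and 22.2% of all, and it lay in windows of Celf2, Elavl2, Mbnl1 and Ptbp2. In the printed windows no CAGCTG match overlaps a GGGCGG match. Windows of 1 gene can share sequence, and a match is a run of letters, not a site shown to be bound. For CAGCACC, 22 windows are too few to tell 0 from a share of 7.14%, and sequence outside the windows was not searched.

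Among the neuronal Hu genes, Elavl3 was near the limit of detection in ATRX KO. Elavl3 (chr9:22015005-22052023 on GRCm38) had 0.0254, 0.035 and 0.0314 RPKM in ATRX KO replicates 1 to 3, against 12.2, 12.2 and 12.1 RPKM in ATRX WT replicates 1 to 3. In whole reads this was 2, 3 and 2 in the ATRX KO libraries and 2305, 2481 and 2406 in the ATRX WT libraries. Every ATRX WT library was far above every ATRX KO library, and neither group spread by more than counting error. The log2 fold change was -8.65 (SE 0.138, limma adjusted p = 8e-11), larger in size than for 99.0% of tested genes. Elavl3 was tested only through ATRX WT, so a fall followed from the filter and this rank adds no support to it. A fitted fold of so few reads depends on the prior count, so the summed reads over the library sizes are the safer measure: their ATRX WT over ATRX KO ratio was 673, with a 95% counting interval of 327 to 1680. The flanking genes, within a few kilobases, moved the other way: Prkcsh, 0.783 kb away, rose by 0.34 and Zfp653, 3.39 kb away, by 0.33.

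Elavl4 and Elavl2 stayed detectable in both lines. Elavl4 (chr4:110203722-110351909) had 0.809, 0.95 and 0.959 RPKM in the ATRX KO libraries, against 8.51, 8.61 and 8.26 RPKM in the ATRX WT libraries. The log2 fold change was -3.23 (SE 0.0815, adjusted p = 1.1e-09 from limma), which left 0.107 of the ATRX WT level, and the groups were well separated. Elavl4 lies in a stretch of chromosome 4, from 110 to 120 Mb, in which 54 of 70 tested genes rose in ATRX KO, 12 fell and 4 did not pass, with a median change of 1.14. Within that stretch only 2 genes had a lower log2 fold change than Elavl4. Its nearest tested neighbours were Dmrta2, which rose by 2.45, and Spata6, with a change of 0.06 (limma adjusted p = 0.5).

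Elavl2 (chr4:91250763-91400785) was the lowest of the 3 in ATRX WT. In ATRX KO it was the highest of them with the authors' gene lengths, while with the union of annotated exons Elavl4 was above it. Its level was 1.15, 1.22 and 1.04 RPKM in ATRX KO, from 156, 144 and 97 reads, and 2.97, 2.90 and 2.71 RPKM in ATRX WT, from 505, 535 and 487 reads. The groups did not overlap, and the fall of 1.34 (SE 0.0873, limma adjusted p = 5.9e-07) left 39.7% of the ATRX WT level. The spread in both groups was near counting error, with a chi-square per degree of freedom of 0.765 in ATRX KO and 1.13 in ATRX WT. Its nearest tested neighbours lay more than a megabase away, with Dmrta1 up by 2.55 and Tusc1 at -0.21 (limma adjusted p = 0.14).

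The broadly expressed member of the family, Elavl1 (HuR), which stabilises transcripts in most cell types, went the other way. Elavl1 averaged 43.2 ± 1.68 RPKM in ATRX KO and 32.9 ± 0.837 RPKM in ATRX WT (SD, n = 3 each) and rose by 0.39 (SE 0.0363, limma adjusted p = 6.8e-06). Together, Elavl2, Elavl3 and Elavl4 supplied 4.58%, 4.75% and 4.4% of the summed Elavl1 to Elavl4 RPKM in the ATRX KO libraries, against 42.1%, 41.2% and 41.7% in the ATRX WT libraries. The shares differed by -37.1 percentage points with no overlap. The exact two-sided permutation test gave p = 0.1, the smallest that 3 against 3 libraries allow. Most of the ATRX WT share came from Elavl3 and Elavl4, which were tested only through ATRX WT. The p therefore adds no support to their falls. Elavl3 alone supplied 0.0674% of the summed family RPKM in ATRX KO, against 21.6% in ATRX WT. For Elavl4 the shares were 2.00% in ATRX KO and 15% in ATRX WT, and for Elavl2 2.51% in ATRX KO and 5.08% in ATRX WT. Summed RPKM of the family was 43.2 to 46.4 in ATRX KO, against 55.3 to 57.5 in ATRX WT.

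**Figure D2:**
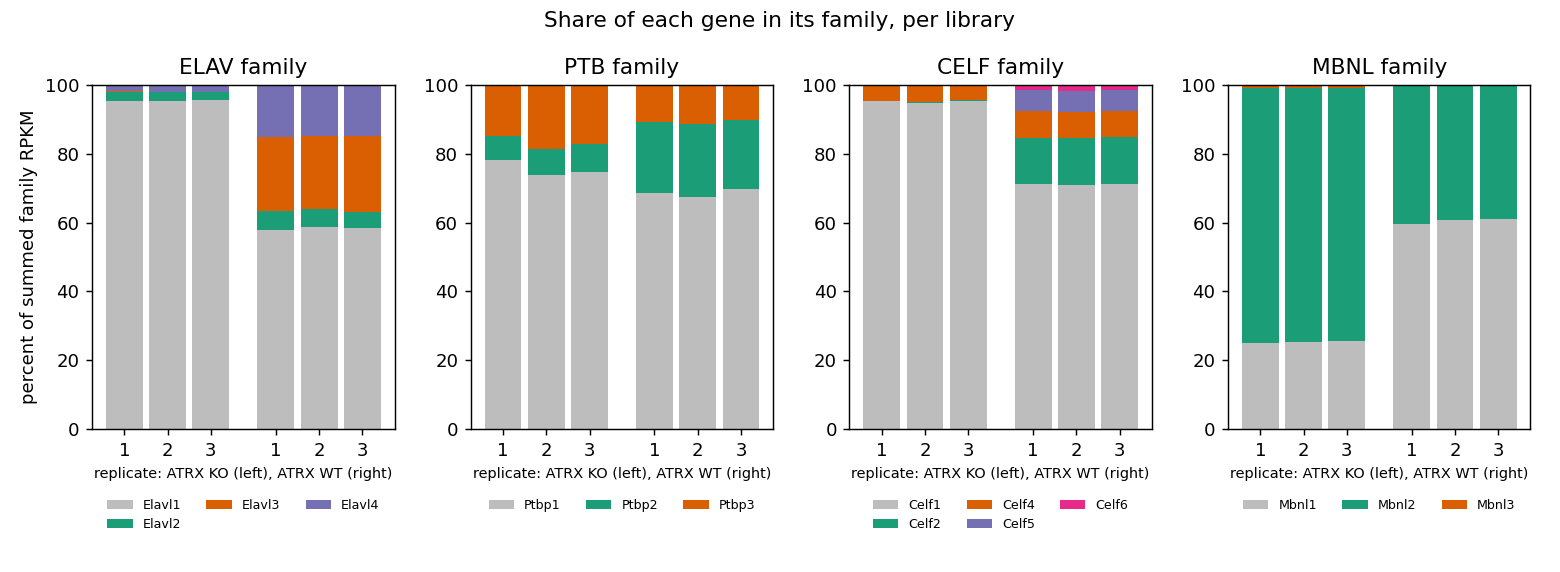
Share of each gene in the summed RPKM of its family, for the Elavl, Ptbp, Celf and Mbnl families, with 1 bar per library and the 3 ATRX KO libraries left of the 3 ATRX WT libraries. Elavl1 takes 95.3% to 95.6% of its family in ATRX KO, against 57.9% to 58.8% in ATRX WT, and Mbnl2 takes the larger part of the Mbnl sum in ATRX KO and the smaller part in ATRX WT.

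Nova1 had the largest change of the 10. Nova1 (chr12:46694517-46818929) had 0.0182, 0.0142 and 0.0226 RPKM in ATRX KO, which is 2, 1 and 2 reads, against 17.5, 17.7 and 17.2 RPKM in ATRX WT, which is 4585, 5020 and 4781 reads. All 3 ATRX KO libraries were thus near the limit of detection, while the ATRX WT libraries agreed within counting error. The log2 fold change was -9.92 (SE 0.169, limma adjusted p = 1.1e-10), and the ATRX WT over ATRX KO ratio of summed reads over library size was 1890, with a 95% counting interval of 808 to 5810. Nova2, its paralogue, is known for exons used in axon guidance and cortical development. It had 46 reads over the ATRX KO libraries and 4562 over the ATRX WT libraries, and fell by 5.93 (SE 0.17, limma adjusted p = 2.3e-09). Nova2 was tested only through ATRX WT, so its fall followed from the filter. Stxbp6, the nearest tested neighbour of Nova1 on one side, rose by 0.40.

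Ptbp1 and Ptbp2 changed in opposite directions. Ptbp1 (chr10:79854427-79864771) had 196, 178 and 182 RPKM in ATRX KO, against 120, 117 and 123 RPKM in ATRX WT. All ATRX KO libraries were above all ATRX WT libraries, with ATRX KO replicate 1 the highest. Ptbp1 rose by 0.62 (SE 0.0391, limma adjusted p = 4.4e-07), which is 1.54-fold, a smaller change than the median absolute change of all tested genes. Without ATRX KO replicate 1 the rise was 0.58. The call held when libraries were scaled by the reads in the table, at 0.43, or by quantiles, at 0.36. Ptbp1 overlaps genes on the opposite strand, among them E130317F20Rik, and the strand setting of the counting is not given in the sources used here, so reads of the overlap cannot be assigned with certainty. Its neighbours on both sides, Palm and Med16, fell by 0.55 and 0.63.

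Ptbp2 (chr3:119718742-119784466), the neuronal PTB, had 17.3, 18.6 and 19.6 RPKM in ATRX KO, against 36.1, 36.7 and 35 RPKM in ATRX WT. It fell by 0.96 (SE 0.046, limma adjusted p = 6.7e-08) to 51.5% of the ATRX WT level, with the groups apart. The ratio of Ptbp1 to Ptbp2 RPKM was 11.3, 9.55 and 9.3 in the ATRX KO libraries and 3.32, 3.2 and 3.51 in the ATRX WT libraries. Ptbp1 was the more abundant of the pair in every library of both lines. The size of the ratio rests on the gene lengths the authors used, 3108 bases for Ptbp1 and 3364 bases for Ptbp2. The unions of their annotated exons are 4740 and 9175 bases. ATRX KO replicate 1 had the highest Ptbp1 and the lowest Ptbp2 of its group, and its ratio was the highest of all 6 libraries. Between replicates of ATRX KO, the chi-square per degree of freedom against counting error was 40.2 for Ptbp1 and 5.82 for Ptbp2, against 8.44 and 2.65 in ATRX WT.

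Ptbp3, the relative found mainly in blood cells but also elsewhere, had 37.4, 44.6 and 41.8 RPKM in ATRX KO, against 18.6, 19.6 and 18.0 RPKM in ATRX WT, and rose by 1.13 (SE 0.0628, limma adjusted p = 1.8e-07) with no overlap. Within the summed RPKM of the 3 PTB genes, Ptbp2 held 6.93%, 7.72% and 8.04% in ATRX KO and 20.7%, 21.1% and 19.9% in ATRX WT. The difference of -13.0 percentage points had an exact two-sided permutation p = 0.1, again the smallest possible. The total of the family was higher in ATRX KO, at 241 to 250 RPKM against 174 to 176 RPKM in ATRX WT. Genes that work with the PTB proteins or compete for similar sites were mixed: of 12 tested, 3 rose, 6 fell and 3 did not pass, with a median of -0.11. Of all tested genes, 43.6% rose and 45.9% fell. Khsrp, a KH-domain protein that acts with PTB at the neural Src exon, rose by 0.97 and the poly(C)-binding protein Pcbp2 by 0.37. Raver2, a PTB corepressor, fell by 2.75 and the nuclear matrix protein Matr3, a partner of PTB, by 0.61. Raver2 was tested only through ATRX WT, so its fall followed from the filter. Scaling by quantiles or by the reads in the table gave 9 falls among the 12 and medians of -0.39 and -0.31, and under quantile scaling the rise of Pcbp2 no longer passed.

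Rbfox2 was the member with the largest rise. Rbfox2 (chr15:77078990-77307004), which binds a GCATG element beside exons and is a known splicing factor of the mesenchymal state, had 43.6, 45.4 and 44.8 RPKM in ATRX KO, against 20.7, 20.6 and 20.5 RPKM in ATRX WT. The libraries within each line were tightly grouped and the lines were apart. The rise was 1.11 on the log2 scale (SE 0.028, 95% interval 1.05 to 1.18, limma adjusted p = 1e-09), or 2.16-fold. Rbfox1, the neuronal and muscle relative, was low in both lines, at 1.21, 1.67 and 1.54 RPKM in ATRX KO and 0.712, 0.775 and 0.688 RPKM in ATRX WT, and rose by 1.01 (SE 0.134). Rbfox1 was tested only through ATRX KO, so its rise followed from the filter. Rbfox3, the neuronal nuclear antigen NeuN, had no row. Both tested neighbours of Rbfox2 rose as well, 1110038F14Rik by 0.33 and Apol9a by 2.26.

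Celf2 (chr2:6539694-7509563) had 0.0968, 0.127 and 0.103 RPKM in ATRX KO, from 26, 30 and 19 reads, against 8.28, 8.78 and 8.39 RPKM in ATRX WT, from 2955, 3390 and 3162 reads. The few ATRX KO reads differed between libraries by no more than counting error. Celf2 fell by 6.29 (SE 0.12, limma adjusted p = 2.1e-10), and the ATRX WT over ATRX KO ratio of summed reads over library size was 83.1 (95% counting interval 66.2 to 106). Its neighbours Usp6nl and Taf3 rose, by 0.68 and 0.37.

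The other Celf genes differed in how far they moved. Celf1, expressed in most tissues and known with Mbnl1 from myotonic dystrophy, had 38.1, 38.9 and 38.6 RPKM in ATRX KO, against 44.2, 45.4 and 43.8 RPKM in ATRX WT, and fell by 0.21 (SE 0.027, limma adjusted p = 8e-05). The brain-enriched Celf4 and Celf5 fell by 1.47 and 4.92. Celf5 was tested only through ATRX WT, so its fall followed from the filter. Celf6, too low to test, had 2 reads over the ATRX KO libraries and 322 over the ATRX WT libraries. The ATRX WT over ATRX KO ratio of its reads over library size was 106 (95% counting interval 29.0 to 875), and Celf3 had no row. Celf2 made up 0.242%, 0.309% and 0.254% of summed Celf RPKM in ATRX KO, against 13.4%, 13.7% and 13.7% in ATRX WT. The difference was -13.3 percentage points (exact two-sided permutation p = 0.1, the smallest possible). Celf2 was tested only through ATRX WT, so this p adds no support to its fall. Celf1 filled the rest of the sum for the most part, with 95% in ATRX KO and 71.1% in ATRX WT.

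Mbnl1 was the one regulator without a difference that passed. Mbnl1 (chr3:60472830-60629750), which promotes adult exon patterns in muscle, had 17.5, 20.5 and 19.7 RPKM in ATRX KO and 18.5, 19.9 and 18.8 RPKM in ATRX WT, from 3073, 3120 and 2369 reads and from 4022, 4681 and 4320 reads. The groups overlapped, with ATRX KO replicate 1 the lowest of all 6 libraries and ATRX KO replicate 2 the highest. The change was 0.01 on the log2 scale (SE 0.06, 95% interval -0.13 to 0.15, limma adjusted p = 0.85). That p does not show that the lines had the same level. Against counting error, the chi-square per degree of freedom was 21 in ATRX KO and 6.43 in ATRX WT. Scaled by the reads in the table, the value was -0.18 and passed (limma adjusted p = 0.017), a shift that applied to all genes, whose median moved by -0.20. Its neighbours Igsf10 and P2ry1 changed by 0.57 and -1.91.

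Mbnl2, the paralogue most used in brain, rose 4.48-fold in ATRX KO. It had 51.8, 59.5 and 56.5 RPKM in ATRX KO, against 12.6, 12.8 and 12 RPKM in ATRX WT, a log2 fold change of 2.16 (SE 0.0517, limma adjusted p = 7.6e-10). Mbnl3, too low to test, had 468 reads over the ATRX KO libraries and 6 over the ATRX WT libraries, an ATRX KO over ATRX WT ratio of summed reads over library size of 119 (95% counting interval 54.3 to 326). The Mbnl1 share of summed Mbnl RPKM was 25%, 25.4% and 25.6% in ATRX KO, against 59.4%, 60.8% and 60.9% in ATRX WT, a difference of -35.1 percentage points (exact two-sided permutation p = 0.1, the smallest possible). The family total was 69.9 to 80.8 RPKM in ATRX KO, against 30.8 to 32.6 RPKM in ATRX WT.

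Qk (chr17:10202601-10319854) encodes the Quaking proteins, which act in oligodendrocyte maturation and in the epithelial to mesenchymal transition. It had 28.6, 29.6 and 29.8 RPKM in ATRX KO, against 66.7, 69.3 and 67.1 RPKM in ATRX WT. Qk fell by 1.20 (SE 0.0291, 95% interval -1.27 to -1.14, limma adjusted p = 8.1e-10) to 0.434 of the ATRX WT level, and every ATRX KO library was below every ATRX WT library. Its replicates varied more than counting error, with a chi-square per degree of freedom of 3.54 in ATRX KO and 11.2 in ATRX WT. Pde10a, its nearest tested neighbour on one side, fell by 1.23. Of its STAR-domain relatives, Khdrbs1 (Sam68), expressed widely, had 55.4, 57.2 and 56.9 RPKM in ATRX KO, against 62.5, 64.5 and 62.2 RPKM in ATRX WT, and fell by 0.16 (SE 0.0276, limma adjusted p = 0.00053). The brain-enriched Khdrbs3 had 2.18, 2.29 and 1.99 RPKM in ATRX KO, against 59.2, 58.3 and 57.9 RPKM in ATRX WT, and fell by 4.76 (SE 0.0537, limma adjusted p = 1.5e-11). Khdrbs2, also of the brain, fell by 5.16, with 12 reads over the ATRX KO libraries and 862 over the ATRX WT libraries. Khdrbs2 was tested only through ATRX WT, so its fall followed from the filter.

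**Figure D3:**
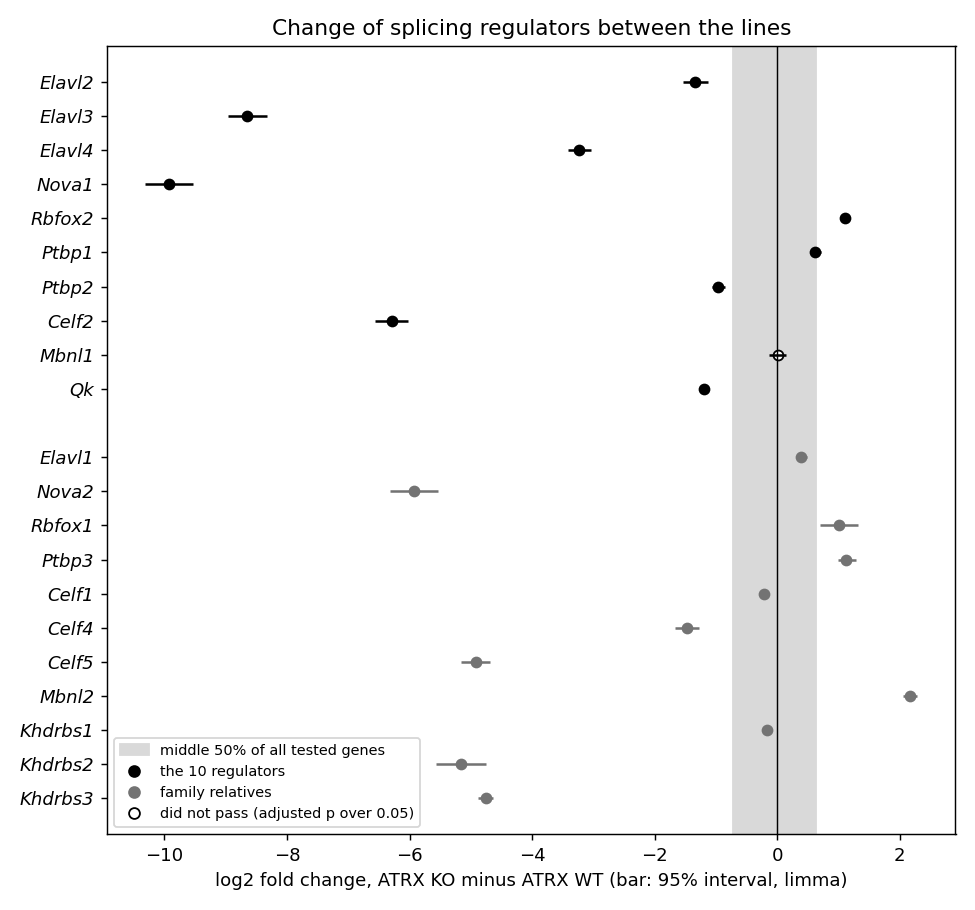
Log2 fold change, ATRX KO minus ATRX WT, of the 10 regulators (black) and their tested family relatives (grey), with 95% intervals from limma and a band for the middle 50% of all tested genes. The members run from -9.92 for Nova1 to 1.11 for Rbfox2, with Mbnl1 at 0.01.

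Over the family relatives, 13 of 15 listed genes had a row and 11 were tested, of which 4 rose (Elavl1, Rbfox1, Ptbp3 and Mbnl2) and 7 fell (Nova2, Celf1, Celf4, Celf5, Khdrbs1, Khdrbs2 and Khdrbs3), with a median of -0.21 against -0.02 over all tested genes. The median was -0.35 with quantile scaling and -0.40 with scaling by the reads in the table. Of the 11, 3 (Nova2, Celf5 and Khdrbs2) were tested only through ATRX WT and 1 (Rbfox1) only through ATRX KO. The direction of these genes followed from the filter. Of all tested genes, 43.6% rose and 45.9% fell.

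The order of the levels, which are per length, differed between the lines. In ATRX KO it ran Ptbp1, Rbfox2, Qk, Mbnl1, Ptbp2, Elavl2, Elavl4, Celf2, Elavl3, Nova1, from 7.53 ± 0.07 to -5.79 ± 0.33 log2 RPKM (SD, n = 3). In ATRX WT it ran Ptbp1, Qk, Ptbp2, Rbfox2, Mbnl1, Nova1, Elavl3, Celf2, Elavl4, Elavl2, from 6.91 ± 0.03 to 1.52 ± 0.07 log2 RPKM (SD, n = 3). Ranges of neighbours overlapped only for Mbnl1 and Ptbp2 in ATRX KO and for Celf2 and Elavl4 in ATRX WT. In ATRX KO there was a gap between Ptbp2, at 4.21 ± 0.09, and Elavl2, at 0.18 ± 0.12, which split the regulators into 5 well expressed and 5 low genes. In ATRX WT no such gap appeared. The order rests on the gene lengths the authors used. For Mbnl1 (5809 bases), Celf2 (9517 bases) and Ptbp2 (3364 bases) these were much shorter than the union of annotated exons (18717, 25884 and 9175 bases). With the union lengths, a choice made after seeing the data, Mbnl1 took place 8 in place of 5 in ATRX WT. Also in ATRX WT, Nova1 took place 4 in place of 6 and Ptbp2 place 5 in place of 3. In ATRX KO, Elavl4 moved above Elavl2 and Ptbp2 above Mbnl1, while Ptbp1 stayed first and Nova1 last.

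**Figure D4:**
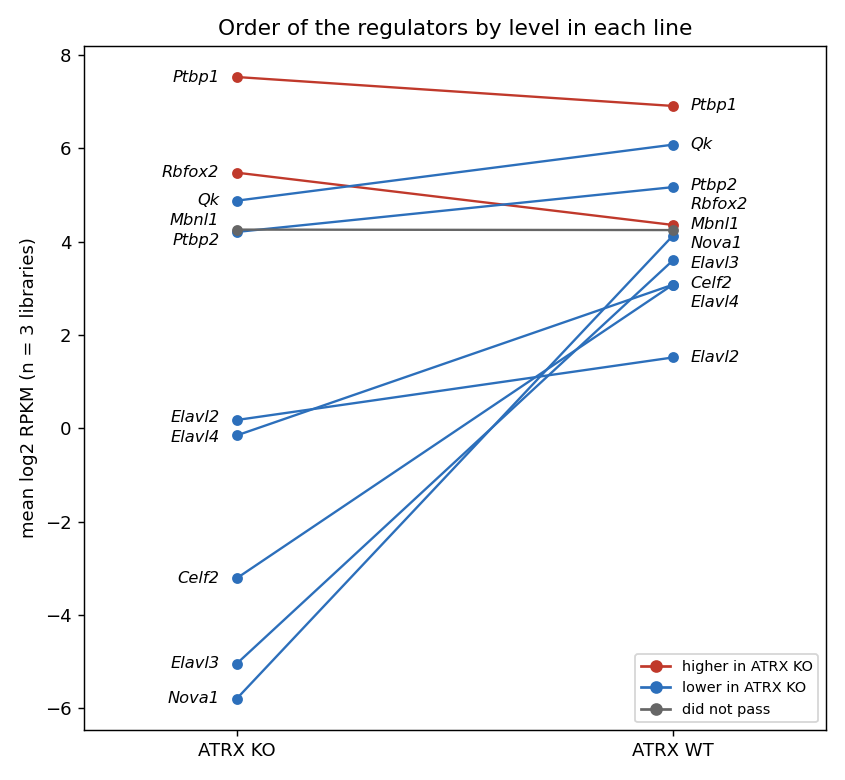
Mean log2 RPKM of the 10 regulators in ATRX KO (left) and ATRX WT (right), with a line for each gene (n = 3 libraries each). In ATRX KO the genes split into 5 at 4.21 or above and 5 at 0.18 or below, and in ATRX WT they run from 6.91 to 1.52.

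Other splicing regulators known from neural, muscle or epithelial cells were set beside the 10. Of 13 listed, 9 had a row and 6 were tested. Of those tested, 3 rose and 3 fell, beside 43.6% and 45.9% of all tested genes. Their median change was 0.34. The sign of that median turned with the filter: over all 9 it was -0.34, with 4 rises and 5 falls, and under the stricter filter it was 1.03 over 5 genes. Rbpms2 and Rbpms, regulators of smooth muscle exons and smooth muscle fate, rose by 2.96 and 1.97. Rbpms2 had 56.0, 50.6 and 54 RPKM in ATRX KO and 6.98, 6.77 and 6.83 RPKM in ATRX WT, with no overlap. Rbm24, a muscle exon regulator, had 0 reads in every ATRX KO library, against 3546 over the ATRX WT libraries, and was at least 775-fold lower in ATRX KO when set against a floor of 3 reads over the group. Rbm24 was tested only through ATRX WT, so its fall followed from the filter. Musashi 1 (Msi1), of neural stem cells, had 7.60, 6.52 and 7.16 RPKM in ATRX KO, against 27.1, 26.0 and 28.5 RPKM in ATRX WT, and fell by 1.94 (SE 0.0611, limma adjusted p = 4.2e-09), and Msi2 fell by 0.34. Srrm3 and Srrm4, which promote neural microexons, were too low to test. Srrm3 had 3 reads in all in ATRX KO, against 395 in ATRX WT, and Srrm4 had 229 in ATRX KO, against 893 in ATRX WT. The epithelial regulators Esrp1 and Esrp2, and also Rbm47 and A1cf, had no row.

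Genes whose transcripts are known to be spliced or stabilised by the members were mostly lower in ATRX KO. Of 12 listed, 9 were tested, of which 8 fell and 1 rose, beside 45.9% and 43.6% of all tested genes. The median of the 9 was -2.68, and 3 of the 9 were tested only through ATRX WT. The median was -0.66 over the 7 genes that passed the stricter filter, -1.76 over all 11 with a row, and -1.47 with 1 added to RPKM before the log. Mapt, which encodes tau, fell by 5.23, with 97 reads in ATRX KO against 5837 in ATRX WT. Mapt was tested only through ATRX WT, so its fall followed from the filter. Gabbr1, a GABA receptor subunit, was the 1 that rose, by 1.09, at 15.2 ± 1.08 RPKM in ATRX KO and 7.15 ± 0.117 RPKM in ATRX WT (SD, n = 3 each). Gene totals do not show which isoform was made.

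The tested genes of the REST repressor complex, known upstream regulators of neuronal genes, rose. REST represses neuronal genes outside neurons with its corepressor Rcor1 and the small phosphatases Ctdsp1, Ctdsp2 and Ctdspl. Rest had 12.7, 12.6 and 12.3 RPKM in ATRX KO, against 6.61, 6.73 and 5.87 RPKM in ATRX WT, and rose by 0.97 (SE 0.0573, limma adjusted p = 2.8e-07). Rcor1 rose by 0.75, Ctdsp2 by 0.65, Ctdsp1 by 0.36 and Ctdspl by 0.27. All 5 tested thus rose, with a median of 0.65, against 43.6% risen over all tested genes. The rises of Ctdsp2, Ctdsp1 and Ctdspl were below the median absolute change of all tested genes, 0.68. Whether any of these genes acted on the regulators was not tested. When libraries were scaled by the reads in the table, Ctdspl no longer passed. Mir124a-1hg, a host transcript of miR-124, which lowers Ptbp1 in neurons, was below the filter. It had 0 reads in every ATRX KO library, against 351 over the ATRX WT libraries, and was at least 76.7-fold lower in ATRX KO when set against 3 reads over the group.

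**Figure D5:**
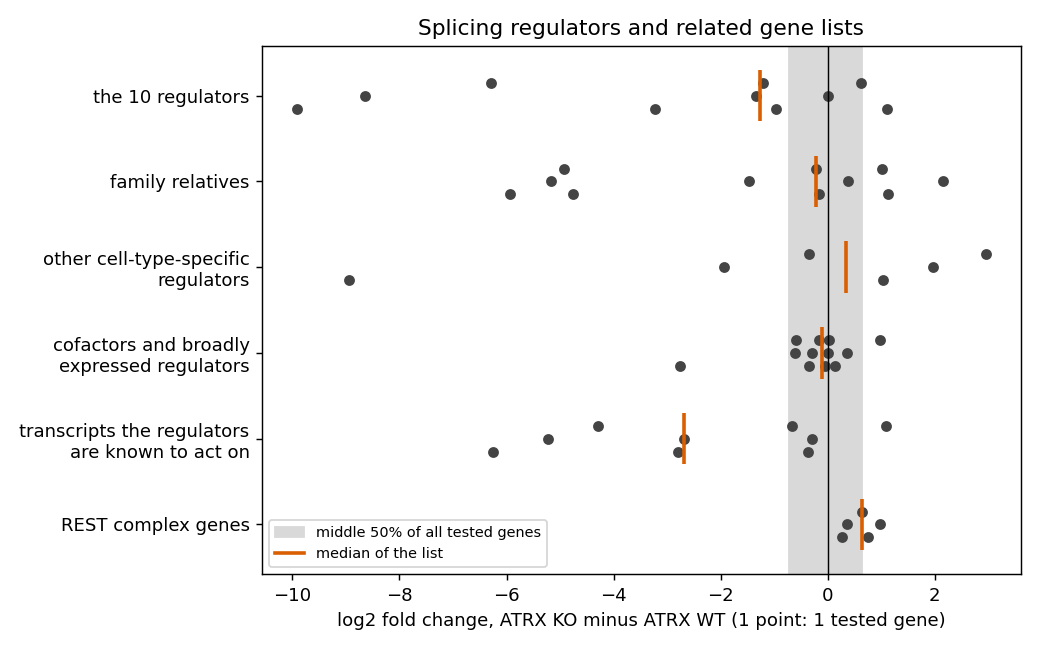
Log2 fold changes, ATRX KO minus ATRX WT, of the 10 regulators and of the related gene lists, with 1 point per tested gene, a line at each list's median and a band for the middle 50% of all tested genes. The 10 regulators have a median of -1.27, the transcripts they are known to act on -2.68, and the REST group 0.65.

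The markers of cell types separated the lines too. Many of them were tested only through the group where they are high, so that their direction followed from the filter: 3 of 5 neuronal, 3 of 5 neural stem cell, 1 of 2 astrocyte and 3 of 4 oligodendrocyte markers through ATRX WT, and all 5 mesenchymal markers, Tmem119 and Cdh5 through ATRX KO. All 6 neuronal markers had a row, with a summed level of 7.08 to 7.60 RPKM in ATRX KO, against 163 to 169 RPKM in ATRX WT. All 5 tested fell (Dcx, Tubb3, Map2, Snap25 and Stmn2), with Dcx at 0 reads in ATRX KO. Most of the ATRX WT sum was Map2, at 129 RPKM, against 2.03 RPKM in ATRX KO. Tubb3 stayed at 4.60 RPKM in ATRX KO, against 17.4 RPKM in ATRX WT. All 5 neural stem cell markers, among them Sox2, Nes, Fabp7 and Pax6, fell, with sums of 47.5 to 49.3 RPKM in ATRX KO, against 2900 to 2960 RPKM in ATRX WT. Most of the ATRX WT sum was Fabp7, at 2760 RPKM, against 0.143 RPKM in ATRX KO. Sox2 and Nes stayed at 19.8 and 28.3 RPKM in ATRX KO, against 80.4 and 91.2 RPKM in ATRX WT. Of 5 oligodendrocyte lineage markers 4 were tested and fell (Olig1, Olig2, Cnp and Bcas1), with sums of 2.04 to 2.25 RPKM in ATRX KO, against 290 to 300 RPKM in ATRX WT, and Olig1 and Bcas1 at 0 reads in ATRX KO. Of 4 astrocyte markers the 2 in the table, Aldh1l1 and Slc1a3, fell, at 28.9 to 33.4 RPKM summed in ATRX KO, against 354 to 361 RPKM in ATRX WT, and Gfap and Aqp4 had no row. Mesenchymal markers went the other way: of 8 listed 7 had a row, and all 5 tested rose (Col1a1, Col3a1, Postn, Acta2 and Lum), with sums of 1150 to 1310 RPKM in ATRX KO, against 2.54 to 2.83 RPKM in ATRX WT. Most of the ATRX KO sum was Col3a1, Col1a1 and Postn, at 725, 266 and 210 RPKM, while Acta2 was at 2.14 RPKM. Among the mesenchymal markers too low to test, Thy1 had 79 reads in ATRX KO, against 223 in ATRX WT. Col1a2, also too low, had 259 reads in ATRX KO, against 26 in ATRX WT, and Tagln had no row. The microglial marker Tmem119 rose to 4.37 to 4.88 RPKM in ATRX KO, against 0.0553 to 0.0782 RPKM in ATRX WT, while Ptprc, Aif1 and Cx3cr1 had no row. Endothelial markers summed to 5.59 to 6.49 RPKM in ATRX KO, against 0.285 to 0.403 RPKM in ATRX WT, a sum carried by Cdh5, which rose. Kdr, too low to test, was at 0.253 RPKM in ATRX KO and 0.304 RPKM in ATRX WT with overlapping groups, and Pecam1 had no row. Of the muscle markers Myod1 alone had a row, at 0.0852 to 0.177 RPKM in ATRX KO, against 0.536 to 0.657 RPKM in ATRX WT, and the 4 epithelial markers had none. These lists moved with the regulators, and their part in the changes of the regulators was not tested.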

How the data were processed

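RNA-seq of 6 libraries was analysed, 3 ATRX KO and 3 ATRX WT, grouped by their labels. The values the authors deposited are log2 RPKM, 1 per gene and library. The submitters' processing notes name edgeR 3.20.9, HTSeq 0.11.2, STAR 2.5.3a, Trim Galore and FastQC, and the builds mm10 and mm9 with no role. Per the labels' protocols, 4 ug of total RNA went into stranded mRNA libraries read as paired-end 42-nt reads.

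Whole reads were recovered for 100% of the 13069 genes, with a tolerance of 0.0001 reads. RPKM, read sums and ratios come from these or from the deposited values. The RPKM include a prior of about 2 reads, so a gene at 0 reads has a small value. The authors scaled by library sizes that were 0.932 to 0.935 times the summed reads in ATRX KO and 1.07 times in ATRX WT.

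A gene was tested (12201; 868 left out) if 3 or more libraries reached log2 RPKM 0. Tests used limma 3.58.1 in R 4.3.3 with a mean-variance trend, were two-sided, and had p-values adjusted by Benjamini-Hochberg over the tested genes at a threshold of 0.05. The test was checked on simulated data in which few genes changed, unlike here, so the check does not cover a difference this broad. Residual and prior degrees of freedom were 4 and 4.2. Family shares were compared with an exact permutation test. Each genotype is 1 line, so p-values measure the spread between its libraries, which may be technical. Counting intervals and floors cover counting error only.

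The members and the gene lists were chosen with earlier results of these data known. Named are all members and family relatives, Atrx, Trp53 and Nras, up to 2 rises and 2 falls per other list, lists of 5 or fewer tested genes in full, and the nearest tested neighbours. A few genes that this rule takes are not reported here. Genes of other lists that were too low to test are named after their values were seen. Gene positions were taken by symbol from GENCODE M21 (GRCm38) and promoters from RefSeq. Alternatives were other filters, pseudocounts, scalings, a fit without the trend, voom on recovered reads, a replicate block, and leaving out each library.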

Additional observations from a re-analysis of the deposited data

How the results depend on the processing

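Of 21 members and relatives tested, 20 kept their direction and their call under every alternative in which they were tested. Mbnl1 was the exception: its change was -0.18 with libraries scaled by the reads in the table (limma adjusted p = 0.017), -0.09 with quantile normalization (limma adjusted p = 0.19), and -0.04 to 0.08 when 1 library was left out, with values below 0 when ATRX KO replicate 2 (-0.04) or 3 (-0.01) or ATRX WT replicate 1 (-0.01) was dropped. With a filter of mean log2 RPKM of at least 1, 3 of 6 tested members and 4 of 7 tested relatives fell, because fewer genes were tested. With shares of recovered reads in place of RPKM the differences were -32.7 percentage points for the neuronal Elavl genes, -16.5 for Celf2 and -36.1 for Mbnl1, since reads are not divided by length. Adding 1 to RPKM before the log shrank the falls of low genes by construction, to -3.67 for Elavl3, -4.18 for Nova1, -3.10 for Celf2, -0.85 for Elavl2, -2.39 for Nova2, -2.08 for Celf5 and -2.48 for Khdrbs2. The change of Rbfox1, low in both lines, was 0.52 on that scale and 1.98 with quantile normalization, which gave -0.79 for Elavl2. Scaling by the reads in the table moved the median of all genes by -0.20, with 4388 rises and 6689 falls against 5321 and 5604, and gave 0.20 for Elavl1, -0.40 for Celf1 and -0.36 for Khdrbs1. Replicate numbers did not pair the libraries (correlations of -0.05, 0.05 and -0.04). With a replicate block, 5287 genes rose and 5564 fell, member counts did not change, and the share differences were the same with a smallest exact p of 0.25. Read numbers limit Elavl3 and Nova1 in ATRX KO, where 7 and 5 reads set the level.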
